A study of Mus musculus with 6 samples.

Results

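The interferon transcription factors described here are 9 mouse genes, Irf1, Irf2, Irf3, Irf4, Irf5, Irf7, Irf8, Irf9 and Stat2. They were found by gene symbol in a table of 56941 Ensembl identifiers, and all 9 had enough counts to be among the 13299 genes tested. The 9 genes were proposed with the S1P comparison itself in view, so that they were in part selected on their own fold changes between S1P and vehicle, and those values are given as a description. The calls printed for them come from the fit over all genes and are no test of the 9 genes as a choice. By the labels, RNA was sequenced from purified naive CD8+ T cells of B6 mouse spleen, activated for 3 days on plate-bound anti-CD3 with anti-CD28 and rIL2 at 100 U/ml. At 24 h, 3 cultures received S1P (sphingosine-1-phosphate, a lipid that signals through S1PR1 and its relatives) at 5 µM and 3 received vehicle control. The labels number the samples of each group as biological replicates 1 to 3, without saying whether each came from its own mouse. The p-values therefore measure the spread between these cultures.

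As background, interferon regulatory factors (IRFs) share a DNA-binding domain that recognizes repeats of the letters GAAA. Type I interferon acts through the kinases JAK1 and TYK2 to bring STAT2 and IRF9 together in the complex ISGF3, which binds the interferon-stimulated response element (ISRE) of antiviral genes. Interferon gamma acts through JAK1 and JAK2 on genes with a gamma-activated site (GAS), IRF1 among them. IRF3 and IRF7 are switched on by nucleic acid sensors and induce the type I interferon genes, and IRF7 is itself made in response to interferon. IRF5 acts below Toll-like receptors, IRF2 competes with IRF1, and IRF4 and IRF8 are lymphoid factors that bind DNA with ETS or AP-1 partners. In T cells IRF4 is induced by antigen receptor signaling.

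The libraries did not in all respects match a culture of CD8+ T cells alone. The methods of the study give either purified T cells or whole splenocytes as the starting cells of its cultures, while the labels name purified cells, so the levels below are those of the cultures and not of CD8+ T cells alone. In vehicle-treated samples Cd4 was at 203 ± 18.4 CPM and Cd8a at 222 ± 24.9 CPM (SD, n = 3 each; CPM are counts scaled to library size and not to gene length), and B cell markers were abundant in all 6 samples. In bulk RNA, fewer cells of a type and less RNA per cell cannot be told apart. S1P-treated replicate 2 stood apart, with 7.80% of its counts from mitochondrially encoded genes against 4.10% to 4.93% for the rest. Leaving it out gave log2 fold changes of 2.51 for Irf7, 0.84 for Stat2 and 0.52 for Irf9.

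Among these factors the S1P-treated samples differed most in Irf7, Stat2 and Irf9, which were 5.72, 1.89 and 1.48 times as high as in vehicle-treated samples. Irf2 and Irf4 lay 1.23 and 1.21 times as high, and Irf8 1.09 times as high. Irf1, Irf3 and Irf5 lay between 0.87 and 1.02 times the vehicle level. A gene was called when its edgeR quasi-likelihood adjusted p was at most 0.05 and its log2 fold change at least 0.3 in size. By this rule 3 of the 9 factors were called higher, where 12.7% of all tested genes were, and 0 were called lower, where 10.4% of all tested genes were (23.1% in either direction). With DESeq2 these counts were also 3 and 0. At an unadjusted edgeR p under 0.05 there were 5 higher and 1 lower, a threshold whose share of all tested genes is not given here. The groups did not overlap for 6 factors with S1P higher and 1 with S1P lower, against 23.0% and 22.6% of all tested genes (45.6% in either direction). The median log2 fold change was 0.27 over the 9 factors and 0.01 over all tested genes.

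**Figure D1:**
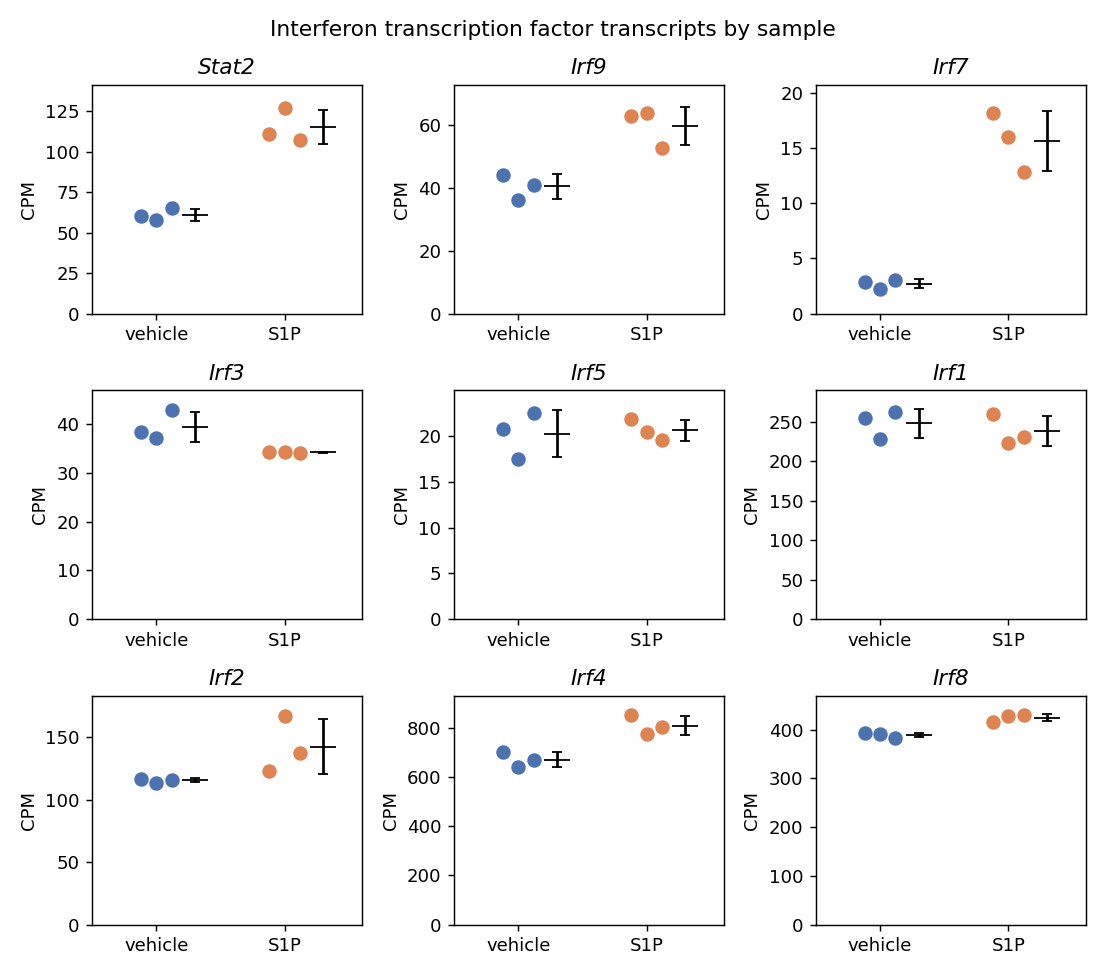
Level of each interferon transcription factor transcript in each sample, in CPM (counts scaled to the TMM-adjusted size of each library, axes from 0), with 3 vehicle-treated samples in blue and 3 S1P-treated samples in orange and the mean ± SD in black beside each group. The 3 S1P-treated samples lie between 12.8 and 18.2 CPM for Irf7, where the vehicle-treated samples lie between 2.27 and 3.02, while the groups overlap for Irf1 and Irf5.

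Before the values, the sequences in front of these genes are of use, because the ISRE and the GAS are the DNA letters through which the types of interferon act. The 250 bases before the start of each gene's canonical transcript in GENCODE vM39 were read from the GRCm39 genome and searched on both strands for an ISRE (GAAA, any 2 bases, GAAA), a GAS (TTC, any 3 bases, GAA) and the ETS-IRF composite element (GGAA, any 2 bases, GAAA). An ISRE match and a composite match can overlap. Of the 13259 tested genes with such a window, 3.25% held an ISRE match, 6.68% a GAS match and 2.30% a composite match. Among the 9 factors, 2 windows held an ISRE match (Irf2 and Stat2), 3 a GAS match (Irf1, Irf2 and Irf8) and 2 a composite match (Irf2 and Stat2). The windows of Stat2 (chr10:128106102-128106351, plus strand) and Irf7 (chr7:140846399-140846648, minus strand) are shown because these factors differed most between the groups. Capitals mark the ISRE match, which begins 207 bases before the start of Stat2 and reads on the reverse strand, and the Irf7 window held no match to the 3 motifs.
Stat2: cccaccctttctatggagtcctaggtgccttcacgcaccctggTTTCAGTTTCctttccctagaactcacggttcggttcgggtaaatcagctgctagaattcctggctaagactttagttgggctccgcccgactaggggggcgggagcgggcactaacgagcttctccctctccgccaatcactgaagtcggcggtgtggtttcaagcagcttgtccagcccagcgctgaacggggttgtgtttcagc
Irf7: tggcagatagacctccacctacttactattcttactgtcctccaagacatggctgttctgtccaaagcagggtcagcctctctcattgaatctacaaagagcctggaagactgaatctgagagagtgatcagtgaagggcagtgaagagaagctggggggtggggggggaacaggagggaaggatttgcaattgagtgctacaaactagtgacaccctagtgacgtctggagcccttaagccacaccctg
The ISRE match before Irf2 was GAAAATGAAA (chr8:47192539-47192548), 221 bases before the canonical start and inside the full span of the gene model. The GAS match before Irf1 was TTCCCCGAA (chr11:53660751-53660759), 90 bases before the start. Irf8 had GAS matches TTCTCGGAA (chr8:121462926-121462934) and TTCAGAGAA (chr8:121462944-121462952), 171 and 153 bases before the start. Irf3, Irf4, Irf5 and Irf9 held none of these letters in their windows. The Irf5 and Irf9 windows, like that of Irf2, lay inside the full span of the gene model. Letters outside the windows were not searched, so a window without a match does not show that the gene lacks such a site. Each match is a run of letters and not a measured binding site.

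Stat2 and Irf9 encode parts of ISGF3. STAT2 carries a transactivation domain and IRF9 binds the ISRE. Stat2 (ENSMUSG00000040033, chromosome 10 from 128106352 to 128128735 of GRCm39, plus strand) stood at 60.1, 57.8 and 65.1 CPM in vehicle-treated replicates 1, 2 and 3 and at 111, 127 and 107 CPM in S1P-treated replicates 1, 2 and 3. All S1P-treated samples lay above all vehicle-treated samples. The mean went from 61.0 ± 3.75 to 115 ± 10.6 CPM (SD, n = 3 each), for a log2 fold change of 0.92 ± 0.08 (SE), and 3.96% of all tested genes had a larger rise.

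Irf9 (ENSMUSG00000002325, chromosome 14 from 55841028 to 55847812, plus strand) encodes the DNA-binding part of ISGF3 and shares 4.86% of its exon bases with Rnf31 on the same strand. It stood at 44.2, 36.3 and 41.1 CPM in the vehicle-treated replicates and at 63.1, 63.8 and 52.9 CPM in the S1P-treated replicates, again without overlap. The mean went from 40.6 ± 3.99 to 59.9 ± 6.09 CPM (SD, n = 3 each), for a log2 fold change of 0.56 ± 0.10 (SE). The CPM ratio of Stat2 to Irf9 was between 1.36 and 1.59 in vehicle-treated and between 1.76 and 2.03 in S1P-treated samples, so the groups were apart in this ratio too.

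Irf7 and Irf3 encode the factors that answer nucleic acid sensors. Their log2 fold changes had opposite signs, though Irf3 was not called. Irf7 (ENSMUSG00000025498, chromosome 7 from 140842619 to 140846398, minus strand) was the least abundant of the 9 genes in vehicle-treated samples, with 50, 31 and 47 counts in replicates 1, 2 and 3, or 2.88, 2.27 and 3.02 CPM. The S1P-treated replicates had 323, 182 and 163 counts, or 18.2, 15.97 and 12.8 CPM. Every S1P-treated sample was more than 4 times as high as every vehicle-treated sample. The mean went from 2.73 ± 0.40 to 15.6 ± 2.70 CPM (SD, n = 3 each), for a log2 fold change of 2.52 ± 0.18 (SE), which placed Irf7 at rank 29 from the top of the 13299 tested genes.

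Irf3 (ENSMUSG00000003184, chromosome 7 from 44647033 to 44652272, plus strand) is made without interferon in most cells. It stood at 38.3, 37.0 and 42.9 CPM in the vehicle-treated replicates and at 34.2, 34.3 and 34.0 CPM in the S1P-treated replicates. All S1P-treated samples lay below all vehicle-treated samples, by a log2 fold change of -0.21 ± 0.08 (SE), and the gene was not called. The CPM ratio of Irf7 to Irf3 was between 0.061 and 0.075 in vehicle-treated samples and between 0.376 and 0.532 in S1P-treated samples.

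Irf5 (ENSMUSG00000029771, chromosome 6 from 29526276 to 29541870, plus strand) stood at 20.8, 17.5 and 22.6 CPM in the vehicle-treated replicates and at 21.9, 20.4 and 19.6 CPM in the S1P-treated replicates. The groups overlapped, with a log2 fold change of 0.03 ± 0.11 (SE). The sign turned when vehicle-treated replicate 2 (-0.07) or S1P-treated replicate 1 (-0.023) was left out, and with no filter on low counts (-0.002).

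Irf1 and Irf2 encode an activator and a repressor that bind the same DNA letters. Irf1 (ENSMUSG00000018899, chromosome 11 from 53660812 to 53669200, plus strand) stood at 254, 227 and 262 CPM in the vehicle-treated replicates and at 259, 223 and 230 CPM in the S1P-treated replicates. The groups overlapped, with a log2 fold change of -0.06 ± 0.08 (SE). Of the exon bases of Irf1, 46.0% lie under Gm12216, Gm74496 and Gm17334 on the opposite strand. The libraries were strand-specific, but the strand setting of the counting is not given in the sources used here.

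Irf2 (ENSMUSG00000031627, chromosome 8 from 47192222 to 47300501, plus strand) stood at 117, 114 and 116 CPM in the vehicle-treated replicates, the tightest spread of the 9 genes in that group relative to the mean apart from Irf8 (SD 1.62 CPM at a mean of 115). The S1P-treated replicates stood at 123, 167 and 137 CPM, and replicate 2 was the highest. The groups did not overlap, with a log2 fold change of 0.30 ± 0.10 (SE) that fell just under the call rule before rounding. Without S1P-treated replicate 2 it was 0.17, and without S1P-treated replicate 1 it was 0.39 and the gene was called. Without any one of the vehicle-treated replicates (0.284 to 0.305) or S1P-treated replicate 3 (0.316) it missed the adjusted p of the rule. S1P-treated replicate 2 was the library with the high mitochondrial share, whose part in the level of Irf2 was not tested. The CPM ratio of Irf1 to Irf2 was between 2.00 and 2.25 in vehicle-treated samples, and it was 2.10, 1.34 and 1.68 in S1P-treated replicates 1, 2 and 3, so that replicate 1 lay within the vehicle range.

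Irf4 and Irf8 encode the lymphoid factors and, per exon length, were the most abundant of the 9 genes besides Irf1. Irf4 (ENSMUSG00000021356, chromosome 13 from 30933209 to 30950959, plus strand) stood at 699, 638 and 670.1 CPM in the vehicle-treated replicates and at 849, 772 and 803 CPM in the S1P-treated replicates. The groups did not overlap. The log2 fold change of 0.27 ± 0.07 (SE) was under the size of the call rule, and Irf4 was called when vehicle-treated replicate 1 (0.302) or S1P-treated replicate 2 (0.305) was left out. It missed the adjusted p of the rule as well when vehicle-treated replicate 2 (0.235) or 3 (0.271) was left out.

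Irf8 (ENSMUSG00000041515, chromosome 8 from 121463096 to 121485659, plus strand) stood at 392, 392 and 384 CPM in the vehicle-treated replicates and at 417, 429 and 429 CPM in the S1P-treated replicates. The groups did not overlap, and the difference was small, with a log2 fold change of 0.13 ± 0.06 (SE). The CPM ratio of Irf4 to Irf8 was between 1.63 and 1.78 in vehicle-treated samples and between 1.80 and 2.04 in S1P-treated samples.

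Levels of different genes were compared per kilobase of exon (FPKM, over the merged exons of all transcripts). In vehicle-treated samples the order of the 9 genes was Irf4 at 136 ± 6.25, Irf1 at 52.9 ± 3.85, Irf8 at 40.0 ± 0.47, Irf3 at 11.3 ± 0.89, Irf2 at 10.3 ± 0.14, Stat2 at 9.68 ± 0.59, Irf9 at 6.99 ± 0.69, Irf5 at 2.83 ± 0.36 and Irf7 at 0.72 ± 0.11 FPKM (SD, n = 3 each). The samples of Irf2 and Stat2 overlapped, those of Irf3 lay just above Irf2, and the other neighbours were apart. In S1P-treated samples Stat2 came next after Irf8 at 18.3 ± 1.68 FPKM, above Irf2 at 12.7 ± 1.99, Irf9 at 10.3 ± 1.05 and Irf3 at 9.81 ± 0.05 (SD, n = 3 each), and the samples of Irf9 and Irf3 overlapped. Irf7 at 4.14 ± 0.72 FPKM stood above Irf5 at 2.88 ± 0.16 (SD, n = 3 each), with no overlap. Irf4, Irf1 and Irf8 kept their order after S1P, with Irf1 between 47.8 and 55.4 FPKM and Irf8 between 42.8 and 44.1 FPKM.

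Other STAT genes place Stat2 in its family. Of 5 such genes, all tested, 1 was called higher after S1P (12.7% of all tested genes) and 0 lower by edgeR, with 4 higher and 0 lower at an unadjusted p under 0.05 and 1 and 0 by DESeq2. Without S1P-treated replicate 2 or 3 there were 2 called higher. The median log2 fold change was 0.28. Stat3, which carries signals of IL-6 and IL-10 family cytokines, went from 304 ± 22.9 to 433 ± 41.8 CPM (SD, n = 3 each), for a log2 fold change of 0.51 ± 0.09 (SE; adjusted p from edgeR 0.00134). Stat5a and Stat5b, which act below IL-2, passed the adjusted p with changes under 0.3 in size (log2 fold changes 0.28 and 0.29, adjusted p from edgeR 0.0121 and 0.0322). Stat6 and Stat4, which act below IL-4 and IL-12, had log2 fold changes of 0.14 and 0.06 (adjusted p from edgeR 0.12 and 0.648).

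**Figure D2:**
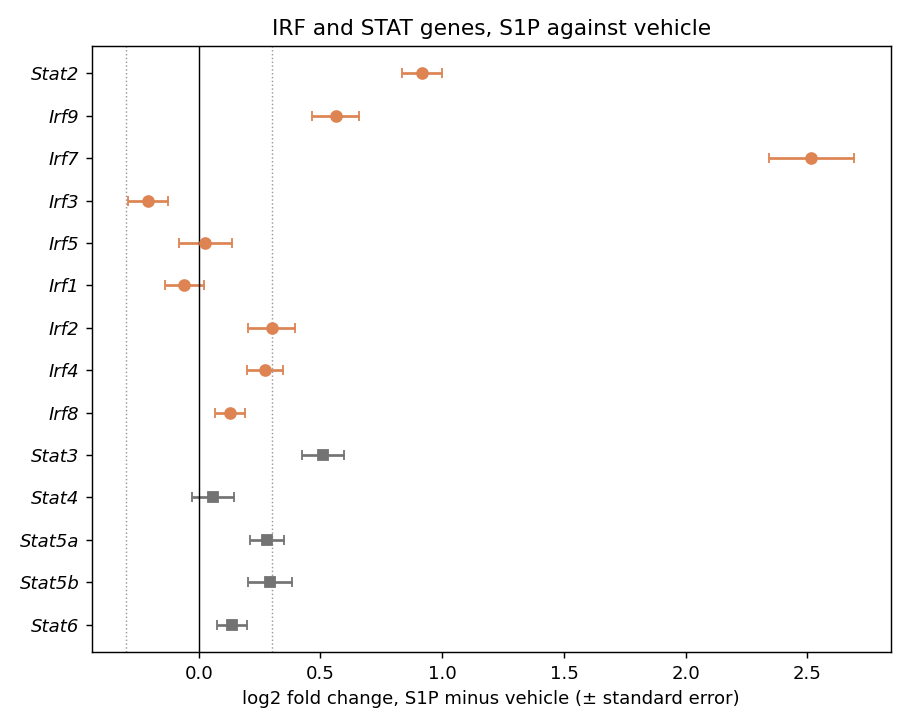
Log2 fold change of S1P-treated over vehicle-treated samples (3 against 3) with its standard error, for the 9 factors (orange circles) and 5 other STAT genes (grey squares). Dotted lines mark a change of 0.3 in either direction, and Irf7 at 2.52, Stat2 at 0.92 and Irf9 at 0.56 lie farthest from 0.

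Genes that ISGF3 is known to drive were mostly higher after S1P, as Stat2, Irf9 and Irf7 were. Of a list of 39 such genes, 38 were tested, and 30 rose and 1 fell, where 12.7% and 10.4% of all tested genes did. Without S1P-treated replicate 1 there were 29 rises and 2 falls, and without S1P-treated replicate 2 there were 28 and 1. The median log2 fold change was 0.89. The largest fitted changes were in Rsad2, an antiviral enzyme, Ifi44, and Mx2, an antiviral GTPase, with log2 fold changes of 4.13, 3.30 and 2.46 (adjusted p from edgeR 0.000209, 0.000248 and 0.000276). Their counts in vehicle-treated samples were low, at 10, 4 and 0 for Rsad2, 10, 7 and 5 for Ifi44 and 47, 21 and 22 for Mx2, against 114, 74 and 41, 97, 72 and 30, and 213, 156 and 78 in S1P-treated replicates 1, 2 and 3. Rsad2 and Ifi44 had at least 10 counts in every S1P-treated sample but not in every vehicle-treated sample, so they were tested through the group where they were high and the size of their changes is imprecise. With at least 10 counts required in every sample 27 genes of the list rose. Ly6e fell, with a log2 fold change of -0.39 (adjusted p from edgeR 0.00117). Before the starts of these 38 genes, 39.5% of the windows held an ISRE match, where 3.25% of all tested genes did.

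Genes that answer interferon gamma and IRF1 held rises and falls. Of 30 such genes 29 were tested, and 8 rose (27.6%) and 2 fell (6.9%), against 12.7% and 10.4% of all tested genes, with a median log2 fold change of 0.10. DESeq2 called 9 higher and 2 lower. Cxcl10, a chemokine gene, rose by 1.66 on the log2 scale, and the guanylate-binding protein genes Gbp10 and Gbp5 by 0.82 and 0.64 (adjusted p from edgeR 0.000116, 0.000273 and 6.3e-05). Gbp genes are near copies of each other, so reads may be split between them, and 44.0% of the exon bases of Gbp10 lie under Gm43302. Psmb10, a subunit of the immunoproteasome, fell by 0.62 and Ciita, the activator of MHC class II genes, by 0.33 on the log2 scale (adjusted p from edgeR 0.00584 and 0.05). Ciita thus lay at the limit of the call rule, and its groups overlapped. Without 1 library in turn the count of rises was between 6 and 9, and that of falls was 1 without vehicle-treated replicate 1 or 3 or S1P-treated replicate 1 or 2. The ISRE letters stood in 24.1% and the GAS letters in 27.6% of the windows of these 29 genes.

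**Figure D3:**
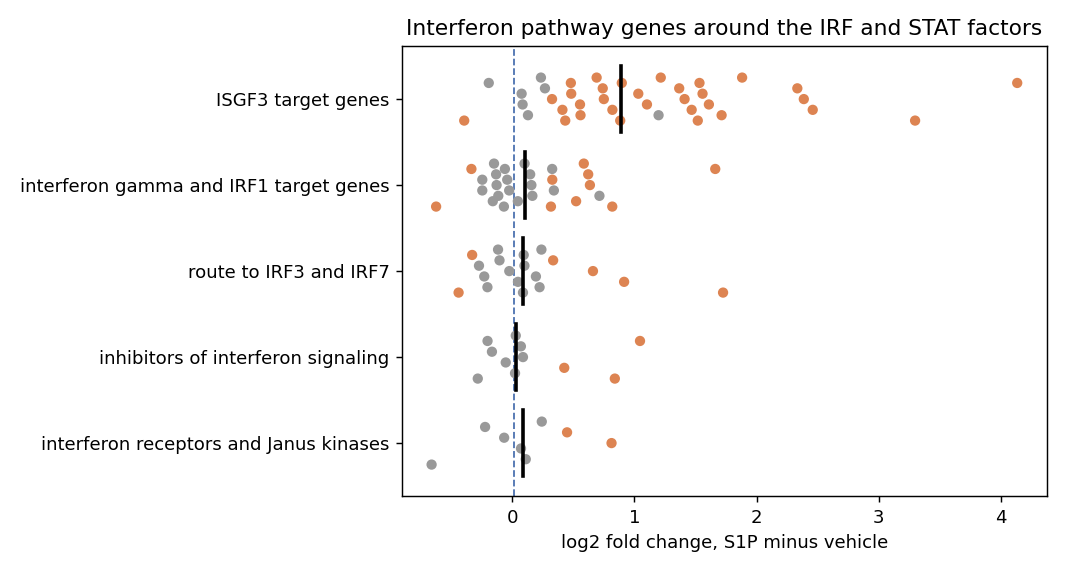
Log2 fold change of S1P-treated over vehicle-treated samples for each tested gene of 5 lists around the IRF and STAT factors, with called genes in orange, other genes in grey and the list median as a black bar. The dashed line is the median of all tested genes, 0.01, and the median of the ISGF3 target genes is 0.89 where those of the other lists lie between 0.03 and 0.10.

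Upstream of the factors, the 9 interferon genes listed were near the floor apart from Ifng. Of the Ifna genes the list held only Ifna2, Ifna4 and Ifna5. Of the type I and type III genes listed, Ifnb1, Ifna5, Ifne and Ifnl3 had 0 counts in all 6 samples, and Ifna2, Ifna4, Ifnk and Ifnl2 at most 3 counts in any sample, so no difference was detectable at this depth. Ifng, overlapped over 25.9% of its exon by Gm49751 on the same strand, fell from 210 ± 10.3 to 149 ± 17.8 CPM (SD, n = 3 each), for a log2 fold change of -0.50 ± 0.09 (SE; adjusted p from edgeR 0.00162). Of 8 tested receptor and Janus kinase genes, 2 rose (25.0%, against 12.7% of all tested genes) and 0 fell by edgeR (2 higher and 2 lower at an unadjusted p under 0.05, 2 and 0 by DESeq2). Jak2, the kinase of the interferon gamma receptor, went from 427 ± 43.1 to 751 ± 64.1 CPM (SD, n = 3 each), for a log2 fold change of 0.81 ± 0.09 (SE; adjusted p from edgeR 0.000123), and Ifngr2, a chain of that receptor, rose by 0.45 on the log2 scale. The type I receptor genes Ifnar1 and Ifnar2 had log2 fold changes of 0.07 and -0.22 and were not called.

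Of 19 tested genes on the route from nucleic acid sensors to IRF3 and IRF7, 4 rose (21.1%) and 2 fell (10.5%), against 12.7% and 10.4% of all tested genes, with a median log2 fold change of 0.09. By the call rule the share that fell was close to that of all genes. At an unadjusted edgeR p under 0.05 there were 6 higher and 5 lower, and DESeq2 gave 4 and 2. Leaving out S1P-treated replicate 2 left 3 rises and 1 fall. The RNA sensor genes Dhx58 and Rigi and the nucleic acid sensor gene Zbp1 rose by 1.73, 0.92 and 0.66 on the log2 scale (adjusted p from edgeR 1.1e-05, 0.000761 and 0.00117). The adaptor genes Myd88 and Traf3 fell by 0.44 and 0.33 (adjusted p from edgeR 0.0102 and 0.00959). Tbk1 and Ikbke, the kinases that phosphorylate IRF3 and IRF7, had log2 fold changes of 0.09 and -0.02 and were not called.

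Among 11 inhibitors of interferon signaling 3 rose (27.3%, against 12.7% of all tested genes) and 0 fell by edgeR (3 higher and 2 lower at an unadjusted p under 0.05, 3 and 0 by DESeq2). Usp18, which blocks the type I receptor, rose by 1.05, Socs3, which blocks Janus kinases, by 0.84, and Ptpn2, a phosphatase of STAT proteins, by 0.43 on the log2 scale (adjusted p from edgeR 0.000994, 0.000123 and 0.00737). Of 9 tested partners and coregulators of IRFs 0 rose and 1 fell (11.1%, close to the 10.4% of all tested genes) by edgeR (0 and 3 at an unadjusted p under 0.05, 0 and 1 by DESeq2). The gene that fell was Irf2bp1, a corepressor of IRF2, by 0.52 on the log2 scale (adjusted p from edgeR 0.00489). When vehicle-treated replicate 2 or S1P-treated replicate 3 was left out, 3 of the partners and 1 of the inhibitors fell. Batf, the AP-1 partner of IRF4 and IRF8, had a log2 fold change of -0.02.

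Other cells than CD8+ T cells can make these factors, and the cultures held transcripts of such cells. B cells make Irf4, Irf5, Irf7 and Irf8, and dendritic cells make Irf5, Irf7 and Irf8. All 13 B cell markers listed were tested, and their summed level was between 1282 and 1568 CPM in vehicle-treated and between 1380.1 and 1526 CPM in S1P-treated samples, so the groups overlapped. Within the list 2 rose (15.4%) and 4 fell (30.8%), against 12.7% and 10.4% of all tested genes, and 2 fell when vehicle-treated replicate 1 or 3 was left out. Ebf1 and Fcer2a rose by 0.60 and 0.56, and Fcrla, Cr2 and Cd22 fell by 0.81, 0.74 and 0.44 on the log2 scale. Ighm, the heavy chain of IgM, was at 528 ± 47.7 and 533 ± 14.6 CPM (SD, n = 3 each).

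A list of 7 T cell markers, all tested, held Cd8a and Cd8b1, which mark CD8 T cells, and Cd3d, Cd3e, Cd3g, Cd2 and Lck, which all T cells express. Of these 1 rose (14.3%) and 2 fell (28.6%) by edgeR, against 12.7% and 10.4% of all tested genes. DESeq2 gave 1 and 2, an unadjusted p under 0.05 gave 1 and 4, and with no fold change minimum 4 fell. The other 2 were Cd3d and Cd3g, with log2 fold changes of -0.28 and -0.21 (adjusted p from edgeR 0.0129 and 0.0444), which lay lower in all S1P-treated samples, while the groups overlapped for Cd3e at 0.15. The gene that rose was Cd2, an adhesion receptor of T cells, by 0.33 on the log2 scale (adjusted p from edgeR 0.0131), and it was not called without vehicle-treated replicate 1 or S1P-treated replicate 2. Of the coreceptor genes, Cd8a fell to 139 ± 6.59 CPM (SD, n = 3), for a log2 fold change of -0.67 ± 0.08 (SE; adjusted p from edgeR 0.000243), and Cd8b1 by 0.55 on the log2 scale. Of 4 CD4 T cell markers 2 rose (50.0%) and 0 fell by edgeR (2 and 0 at an unadjusted p under 0.05 and by DESeq2). Cd4 had a log2 fold change of 0.10, and Cd40lg and Zbtb7b, which mark CD4 T cells, rose by 0.50 and 0.37. Without vehicle-treated replicate 2 or S1P-treated replicate 3, 1 gene of that list rose.

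Dendritic cell markers summed to between 4.18 and 5.996 CPM in vehicle-treated and between 7.11 and 7.62 CPM in S1P-treated samples, without overlap, and 2 of 8 were tested. Most of each sum came from Zbtb46, at 3.7 ± 1.1 and 5.1 ± 0.6 CPM (SD, n = 3 each). The groups overlapped for Zbtb46 and for Flt3, the other tested gene, and Itgax was at 0.69 and 0.65 CPM. Clec9a was at 0 in all 6 samples. Siglech, which marks plasmacytoid dendritic cells, was at 0.09 ± 0.05 and 0.20 ± 0.07 CPM (SD, n = 3 each), with at most 5 counts in any sample. Myeloid markers summed to between 149 and 190.5 CPM and between 175 and 198 CPM. Most of that came from Mpeg1 and Cybb, while Lyz2 had at most 2 counts in any sample and S100a8 and S100a9 had 0. NK cell markers summed to between 3.81 and 4.89 CPM and between 3.69 and 6.06 CPM. In these last 3 lists 0 genes were called by edgeR, 0 had an unadjusted p under 0.05 and 0 were called by DESeq2. The part of these cells in the levels of Irf7, Stat2 and Irf9 was not tested.

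**Figure D4:**
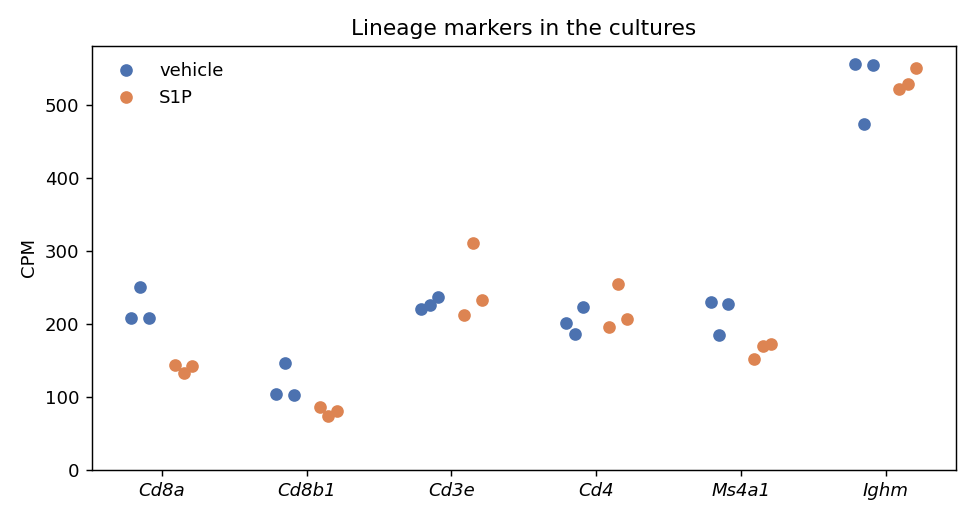
Level in CPM (axis from 0) of markers of CD8 T cells (Cd8a, Cd8b1), T cells (Cd3e), CD4 T cells (Cd4) and B cells (Ms4a1, Ighm) in 3 vehicle-treated samples (blue) and 3 S1P-treated samples (orange). Cd8a, Cd8b1 and Ms4a1 are lower in all S1P-treated samples, and the groups overlap for Cd3e, Cd4 and Ighm. The T cell markers Cd3d and Cd3g, not among those drawn, are also lower in all S1P-treated samples. Of the B cell markers not drawn, Ebf1, Fcer2a and Pax5 are higher and Fcrla, Cr2 and Cd22 lower in all S1P-treated samples.

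The genes most like Irf7 over the 6 samples were sought among 8737 genes with a mean of at least 3 on the log2 CPM scale. By Pearson's r of log2 CPM they were Niban1 (0.999), Aebp2 (0.998), Samhd1 (0.997), Zbtb10 (0.997) and Crebrf (0.997). Their own log2 fold changes were 1.12, 0.20, 0.33, 1.33 and 0.60. Both groups enter each correlation, so a difference between them counts toward r, and 402 genes had an r of at least 0.95. Samhd1, which breaks down nucleotides, was the one on the list of ISGF3 target genes.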

How the data were processed

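RNA-seq counts of 3 vehicle-treated and 3 S1P-treated cultures were analysed. The authors prepared strand-specific libraries of polyadenylated RNA, used Trim Galore on the reads, STAR for alignment and featureCounts for counting. The authors deposited raw whole-number counts per gene, and the submitters' processing notes name GRCm39. Versions, the annotation release and the strand setting are not given in the sources used here. The authors tested with DESeq2. GENCODE vM39 (GRCm39) gave symbols for 56323 of 56941 identifiers.

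Library totals were 13636095 to 17089831 counts with vehicle and 12048880 to 17384084 with S1P. No replicate pair agreed within sampling noise (chi-square per gene between 3.81 and 31.3, highest for the pairs with S1P-treated replicate 2). After filterByExpr and TMM scaling, the groups were compared by the quasi-likelihood test of edgeR 4.0.16 (R 4.3.3) without covariates, and p-values were adjusted over 13299 genes by Benjamini-Hochberg. Standard errors are the log2 fold change divided by the root of the F statistic. CPM and FPKM use the TMM-scaled library sizes. The thresholds are those of the study. The code was tested on simulated data. The alternatives were RLE factors, DESeq2 1.42.0, limma-voom (limma 3.58.1), other filters, the replicate number as a block, no fold change minimum, and each library left out in turn.

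The 9 factors and all gene lists were chosen with earlier results of these data known. The text names all 9 factors, 5 other STAT genes, up to 3 called rises and 3 called falls of each other list, and the 5 genes most like the called factor with the largest rise. Genes named beyond this rule (Ifnar1, Ifnar2, Tbk1, Ikbke, Batf, the interferon genes, Ighm and markers at low or similar levels) were chosen after their values were seen. Some genes of these lists are not reported here.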

Additional observations from a re-analysis of the deposited data

How the results depend on the processing

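Stat2, Irf9 and Irf7 were called higher under every alternative run. Leaving out each library in turn gave log2 fold changes of 0.84 to 0.96 for Stat2, 0.485 to 0.635 for Irf9 and 2.38 to 2.63 for Irf7. The number of factors called higher was 5 with no fold change minimum, where Irf2 (0.30) and Irf4 (0.27) joined. Over all tested genes that rule called 1949 higher and 1839 lower. The factors called higher numbered 4 with at least 10 counts in every sample, where Irf2 (0.303) joined, and 3 to 4 without each library in turn. In those fits Irf2 lay between 0.17 and 0.39, Irf4 between 0.23 and 0.31 and Irf5 between -0.071 and 0.11, and Irf5 was at -0.002 with no filter on low counts, where the median of all genes moved to 0.16. Why these moved was not tested. The other STAT genes had 3 called higher with no fold change minimum and 1 to 2 without each library. Falls among the interferon gamma and IRF1 target genes numbered 1 with limma-voom, 1 with at least 10 counts in every sample, and 1 to 2 without each library. Falls among the IRF partners numbered 3 with no filter, 2 with no fold change minimum and 1 to 3 without each library, and among the inhibitors 1, 1 and 0 to 1. Without each library the route to IRF3 and IRF7 had 1 to 3 falls and the ISGF3 target genes 1 to 2 falls, with 28 to 29 rises. Of the T cell markers 4 fell with no fold change minimum. The factors called were 3 higher and 0 lower with the replicate number as a block (replicate block), with 1697 genes higher and 1423 lower overall. The deviations of same-numbered samples correlated at 0.12, -0.006 and 0.048, and those of differently numbered samples between -0.1 and 0.05. With 3 samples per group these values cannot settle whether the numbers pair the samples, and the main fit did not pair them. With counts as low as 31 per sample, Irf7 in vehicle-treated samples is the least precisely measured of the 9 genes.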
